A study of Mus musculus with 2 samples.

Results

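The array used here carried 16251 probes designed against long intergenic RNA, recognised by probe names that begin with A_30_P. None of them has a gene symbol in the authors' deposited table, so each is described by its probe name and by the designed region and strand recorded with it, on the mm9 build of the mouse genome. A probe was kept when the scanner software gave it the mark for signals well above background on 4 or more arrays of the 8, and 8554 probes (52.6%) met this rule. They were tested within a single fit of 30864 features, where a feature is either a named gene, taken by its brightest probe, or a probe without a symbol. The arrays measured RNA of islets isolated from C57BL/6J mice at 8 weeks of age. A group of 4 arrays came from islets taken 3 days after 60% of the pancreas had been removed (pancreatectomy), and the other 4 arrays came from islets taken 3 days after a sham operation. Strain, age, tissue and interval were shared by both groups. Whether arrays of a group held RNA of separate mice, of pooled mice or of repeated labellings is not stated in the labels, so every p-value reflects array-to-array spread alone, part of which may be technical. In whole islets, a change in the number of cells of a type and a change in RNA per cell cannot be told apart.

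Long intergenic RNAs are transcribed by RNA polymerase II from DNA between protein-coding genes, are often spliced and polyadenylated, and code for no known protein. Many are made at low levels and in few cell types, and pancreatic islets and beta cells are known to transcribe many of them. Well known examples act in the nucleus, as Neat1, the scaffold of paraspeckles, or Malat1, which lies in nuclear speckles, or serve as hosts of small nucleolar RNAs, as Gas5 and the Snhg genes. A probe in a region labelled intergenic can also lie in an unannotated end of a coding gene or in a pseudogene, a copy of a gene that has lost its coding function, and the strand and distance of the nearest named gene are therefore given beside each region. Partial removal of the pancreas is a classical model in which the remaining beta cells re-enter the cell cycle.

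The 16251 probes fell in 3555 designed regions, from 62 to 7128487 bases long with a median of 7328 bases. Counting each strand on its own gave 4622 strand-specific regions with 1 to 10 probes each. At least 1 probe was kept in 2888 regions (81.2%). Of the 8554 kept probes, 4205 lay on the forward and 4349 on the reverse strand, and 71 had no position of their own beyond the region. A total of 4323 probes were well above background on all 8 arrays, and 5329 of the 16251 were so on none. Just inside the rule were 532 probes seen on exactly 4 arrays, with a median normalized log2 signal of 3.34 and a median change of -0.24. Just outside it were 489 probes seen on exactly 3 arrays, with a median signal of 3.11 and a median change of -0.26. Among the 532, detection was on more sham arrays for 349 and on more pancreatectomy arrays for 12. Only 3 kept probes were seen on sham arrays alone, and 0 on pancreatectomy arrays alone.

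The share of the 16251 probes well above background was 58.3%, 55.0%, 27.7% and 57.7% on the sham arrays, replicate 1 first, and 57.6%, 41.8%, 51.5% and 46.0% on the pancreatectomy arrays in the same order, which is kept below. The group means were 49.7% ± 14.7 (SD, n = 4) for sham and 49.2% ± 6.85 for pancreatectomy, a difference smaller than the spread within either group. Sham replicate 3 stood apart as the dimmest array, also for all other probes, of which 56.5% were well above background there against 66.2% to 77.1% on the other 7 arrays. On that array 15 kept intergenic probes lay at least 4 log2 units below the median of the other arrays, which happened to 0 of them on any other array. Beta-cell markers, which define most islet cells, were high throughout. All 9 of 9 were measured and had mean signals of 14.97 to 15.58 on sham and 14.62 to 15.11 on pancreatectomy arrays, and 0 of 9 passed the test. The median change of the 9 was -0.36, and 4 had an unadjusted p under 0.05 (limma), as had 10.5% of all features. These were Pdx1, Nkx6-1, Slc2a2 and Ucn3, at -0.51, -0.65, -0.64 and -0.59, while G6pc2 alone of the 9 was higher, by 0.10. Alpha- and delta-cell markers (6 of 6) averaged 12.81 to 13.21 on sham and 11.74 to 12.56 on pancreatectomy arrays. Their median change was -0.49, 0 passed and 3 had an unadjusted p under 0.05 (limma). Acinar markers (9 of 9) averaged 12.08 on sham replicate 3 and 12.99 to 14.82 elsewhere. Liver markers (17 of 19 measured) averaged 11.55 for sham replicate 4 and 11.62 and 10.81 for replicates 1 and 4 of pancreatectomy, while the remaining 5 arrays had 5.45 to 7.13. Gut markers (10 of 14) averaged 8.81 and B-cell markers (10 of 14) 9.76 on pancreatectomy replicate 3, against at most 6.24 and 5.36 elsewhere. Fibroblast markers (7 of 7) averaged 12.25 and macrophage markers (8 of 10) 11.06 on pancreatectomy replicate 1, and 11.62 and 10.65 on pancreatectomy replicate 3, against at most 9.73 and 9.33 elsewhere. The 8 arrays lay on 1 slide, with both groups in each of its 2 rows and sham in columns apart from pancreatectomy, so slide column and group cannot be told apart.

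**Figure D1:**
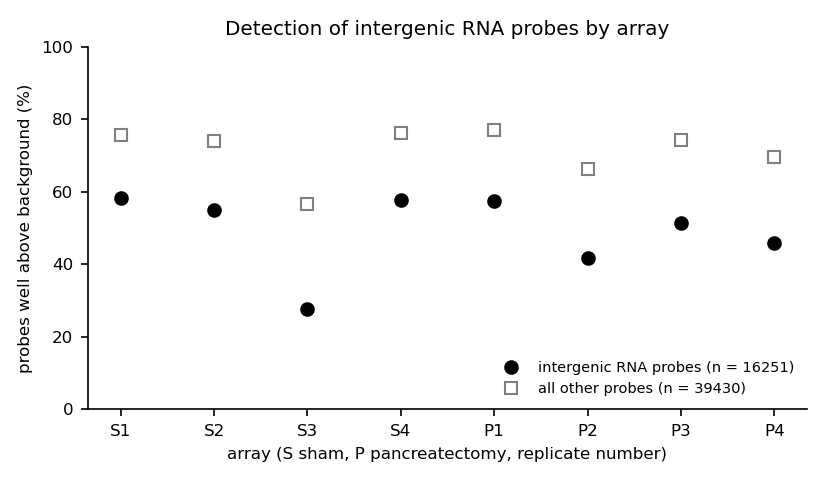
Percentage of probes marked well above background (y axis) on each of the 8 arrays (x axis), for the 16251 intergenic RNA probes (filled circles) and the 39430 other probes of the array (open squares). The intergenic probes lie below the other probes on every array, and sham replicate 3 is lowest for both at 27.7% and 56.5%.

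After pancreatectomy 22 of the 8554 intergenic RNA probes rose and 6 fell (limma, Benjamini-Hochberg adjusted p under 0.05). This is 0.257% and 0.0701% of the probes, where over all 30864 features 0.544% rose and 0.0842% fell. Both groups were fully separated, every array of one above every array of the other, for 162 probes that were higher (1.89%) and 323 that were lower (3.78%) after pancreatectomy, beside 2.99% and 5.29% of all features. The median change over the 8554 probes was -0.04 on the log2 scale, the same as over all features, and the 5th and 95th percentiles were -0.62 and 0.55. The intergenic probes were dimmer, with a median signal of 5.38 against 8.56 for features with a symbol, and their median standard error (SE) was 0.24 against 0.21. Brightness depends on the probe as well as on the RNA, so signals of different probes do not rank their transcripts. The 22 probes that rose lay in 13 separate loci, after overlapping regions of 1 strand were merged, and the 6 that fell lay in 6. Their changes ranged from 0.89 to 3.73 with a median of 3.11, and 14 of them, in 5 loci, exceeded 2. The median of the 6 that fell was -1.10. These sizes depend on how background is handled. Normexp, a model-based background correction, was applied to the median spot signals with an offset of 50 and was chosen after seeing the files. The offset is added to every spot and by itself draws changes of dim probes towards 0, and its part was not tested. With normexp the same 22 probes changed by 0.30 to 2.60 with a median of 1.41, 7 exceeded 2, and the median of the 6 was -0.66.

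**Figure D2:**
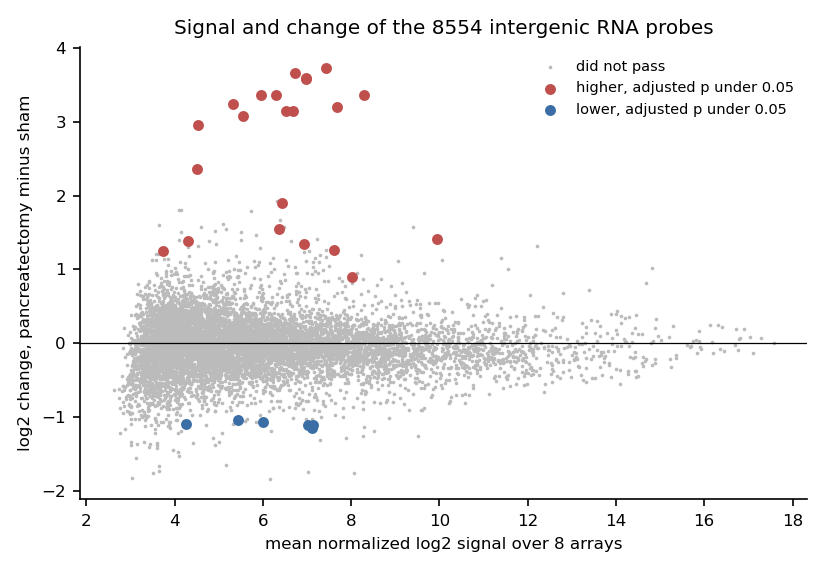
Change after pancreatectomy (y axis, log2, pancreatectomy minus sham) against mean normalized log2 signal over 8 arrays (x axis) for the 8554 kept intergenic RNA probes. Red points are the 22 probes that rose and blue points the 6 that fell. Most probes lie close to 0, and 14 red points lie above 2.

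The counts depended on single arrays. They were 11 and 1 (higher and lower) without sham replicate 1, 6 and 0 without sham replicate 2, 14 and 10 without sham replicate 3, and 8 and 0 without sham replicate 4. Without pancreatectomy replicates 1, 2, 3 and 4 they were 15 and 3, 15 and 6, 15 and 2, and 6 and 0. Over all 30864 features the counts moved too, from 168 and 26 with every array to 83 and 8, 56 and 3, 115 and 32, and 89 and 6 without sham replicates 1 to 4. Without pancreatectomy replicates 1 to 4 all features gave 121 and 8, 165 and 19, 126 and 14, and 57 and 5. Of the 28 probes, 6 passed whichever array was left out, in the regions on chromosome 9, at Kifc1, beside 2700099C18Rik and on chromosome 10 described next, while 2 passed in none of these 8 runs. Within slide row 1 the 22 probes that rose differed by a median of 3.23 (range 0.82 to 3.84) and within row 2 by a median of 2.63 (0.97 to 4.07). The 6 that fell differed by medians of -1.17 and -0.999. With slide row as a block, 10 of the 14 rises above 2, 1 of the 8 smaller rises and 2 of the 6 falls still passed. With normexp correction 6 of the 14 passed, at chromosome 9, Kifc1 and 2700099C18Rik, and 0 of the 8 and 0 of the 6 did. With 2 arrays against 2, limma called 0 intergenic probes in either row, and 0 of all features. Unadjusted p (limma) was under 0.05 for 582 of the 8554 intergenic probes in row 1 and for 238 in row 2. Without the 3 arrays that carried liver transcripts limma again called 0 intergenic probes and 0 of all features. There 388 intergenic probes had an unadjusted p under 0.05, and the 22 probes had a median change of 2.64. Of the 28 called probes, 15 were not well above background on sham replicate 3, and without that array the 22 that rose had a median change of 3.03.

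The region with most called probes was chr9:14460976-14488051 on the forward strand, where all 5 designed probes rose, by 3.15 to 3.37. They lie within 416 bases of each other, so they may sample a single transcript and are not independent evidence of change. The brightest of them, A_30_P01020075 (chr9:14484789-14484848), had a normalized log2 signal of 7.22, 6.16, 5.92 and 7.16 on sham and 10.93, 9.32, 9.77 and 9.88 on pancreatectomy arrays. The lowest pancreatectomy array lay above the highest sham array by more than the range within the sham group. Its change was 3.36 ± 0.41 (SE), or 10.3-fold (limma, adjusted p = 0.0116). A_30_P01018593 read 6.58, 5.63, 5.84 and 6.32 on sham and 10.20, 8.62, 9.15 and 9.17 on pancreatectomy arrays. It rose by 3.19 ± 0.35 (limma, adjusted p = 0.00809) and passed whichever array was left out, as did A_30_P01025009 at 3.15 ± 0.36. A_30_P01029071 and A_30_P01028673 rose by 3.37 ± 0.54 and 3.36 ± 0.57, and their values of 3.03 and 3.05 on sham replicate 3 were not above background there. Both lost the call with slide row as a block (limma, adjusted p = 0.0611 and 0.0656) and with normexp correction, where they changed by 1.62 and 1.86 (adjusted p = 0.144 and 0.0589).

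On the reverse strand of this region 1 of 5 probes was kept, with a change of -0.47. The nearest named probe is that of Gm7607, a long noncoding RNA, on the same strand and 14993 bases from the nearest of the 5. That probe was well above background on 0 of 8 arrays. The nearest kept gene probe, of the fucosyltransferase gene Fut4 on the opposite strand, lay at least 68376 bases away and changed by -0.01 ± 0.14. In the gene order of GRCm38, which is used here for order only, the pseudogenes Gm19790 and Gm18997 follow Gm7607, and Piwil4, a gene of the piRNA pathway, comes after them.

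The reverse strand of chr17:34018371-34019394 held 3 probes, and all 3 rose. This region overlaps the array's own probe for Kifc1, a minus-end directed kinesin that bundles spindle microtubules in mitosis, on the same strand. A_30_P01023554 (chr17:34018374-34018433), shifted by a base from the Kifc1 probe, read 5.56, 4.79, 4.99 and 5.39 on sham and 9.63, 8.37, 8.16 and 8.88 on pancreatectomy arrays. Its change was 3.58 ± 0.33, or 11.9-fold (limma, adjusted p = 0.00725). The Kifc1 probe read 5.70, 5.02, 4.37 and 5.09 on sham and 9.45, 8.42, 8.00 and 8.86 on pancreatectomy arrays, a change of 3.64 ± 0.36 (adjusted p = 0.00725). The probes share nearly all of their target bases. The other members, A_30_P01028287 and A_30_P01019819, lie 506 and 668 bases from the Kifc1 probe and rose by 3.15 ± 0.36 and 3.08 ± 0.44. With normexp correction A_30_P01023554 passed at 2.27, while these changed by 2.004 and 1.499 and did not pass (limma, adjusted p = 0.0845 and 0.252). The part of Kifc1 transcripts in the signal of this region was not tested, as no probe separates them.

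The forward strand of chr10:117021051-117038683, at Kifc5c-ps, a pseudogene of the Kifc1 family, had 3 probes of 5 that rose. A_30_P01029964 (chr10:117032863-117032922) read 3.95, 3.40, 3.51 and 3.89 on sham and 7.94, 6.36, 6.57 and 6.87 on pancreatectomy arrays, a rise of 3.25 ± 0.33 (limma, adjusted p = 0.00725). A_30_P01018019 passed at 2.96 ± 0.43, but it was well above background on only 1 of 4 sham arrays, so the size of this difference is uncertain. Without it 21 probes rose, 13 of them by more than 2. A_30_P01025678 rose by 2.36 ± 0.39. With normexp correction A_30_P01029964, A_30_P01018019 and A_30_P01025678 changed by 1.32, 0.90 and 0.69 and did not pass (limma, adjusted p = 0.307, 0.712 and 0.790). With slide row as a block A_30_P01025678 alone of the 3 did not pass (adjusted p = 0.0685). The remaining 2 probes changed by 1.40 ± 0.33 and 1.20 ± 0.35 and did not pass. All 5 reverse-strand probes were kept, and their changes lay between -0.19 and 0.08. The array's named probe for Kifc5c-ps, on the same strand and 17 bases from A_30_P01029964, read 6.64, 6.46, 6.64 and 6.53 on sham and 6.34, 6.89, 6.66 and 6.80 on pancreatectomy arrays, a change of 0.11 ± 0.16. Probes a few bases apart thus gave different values. Where a pseudogene shares sequence with its parent a probe can also bind the parent's transcript, and the probe sequences were not analysed here, so the source of the signal at Kifc5c-ps is uncertain.

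Overlapping forward-strand regions at chr17:95149413-95174473 and chr17:95150800-95180650 carried the largest rise among the 8554 probes. A_30_P01019123 (chr17:95174242-95174301) read 5.87, 5.32, 4.88 and 6.14 on sham and 10.22, 8.64, 8.67 and 9.61 on pancreatectomy arrays. It rose by 3.73 ± 0.41, or 13.3-fold (limma, adjusted p = 0.00809), and passed whichever array was left out. A_30_P01017632, which covers bases within 164 bases of the same stretch, rose by 3.59 ± 0.50 (adjusted p = 0.0189). A further forward probe, A_30_P01018023, changed by 1.80 ± 0.40 and did not pass (adjusted p = 0.134), although both groups were separated. The 3 kept reverse-strand probes changed by -0.12 to -0.02. The nearest gene probe, 12433 bases away on the same strand, is that of 2700099C18Rik, a transcribed pseudogene. It was well above background on 0 of 4 sham and 4 of 4 pancreatectomy arrays, with means of 2.68 and 5.07. Counted against the dimmest signal called above background on each sham array, it was at least 3.17-fold higher after pancreatectomy on these normalized signals. It met the filter through the pancreatectomy arrays alone, the group where it is high. Its adjusted p of 0.0295 (limma) is therefore no separate support.

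A single probe represented the forward strand of chr5:35893909-35899497. A_30_P01033054 (chr5:35898839-35898898) read 5.86, 5.0, 3.35 and 5.41 on sham and 9.83, 7.53, 8.39 and 8.5 on pancreatectomy arrays, a rise of 3.66 ± 0.61 (limma, adjusted p = 0.0395). Sham replicate 3 was the low value here, and without it the change was 3.14 with an adjusted p of 0.0554. Leaving out any array other than pancreatectomy replicate 2 ended this call, as did slide row as a block (limma, adjusted p = 0.064) and normexp correction, under which the change was 2.16 (adjusted p = 0.0646). The 3 kept reverse-strand probes changed by -0.75 to -0.02. Trmt44, which encodes a tRNA methyltransferase, lies on the reverse strand 1097 bases away and changed by -0.23 ± 0.32.

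**Figure D3:**
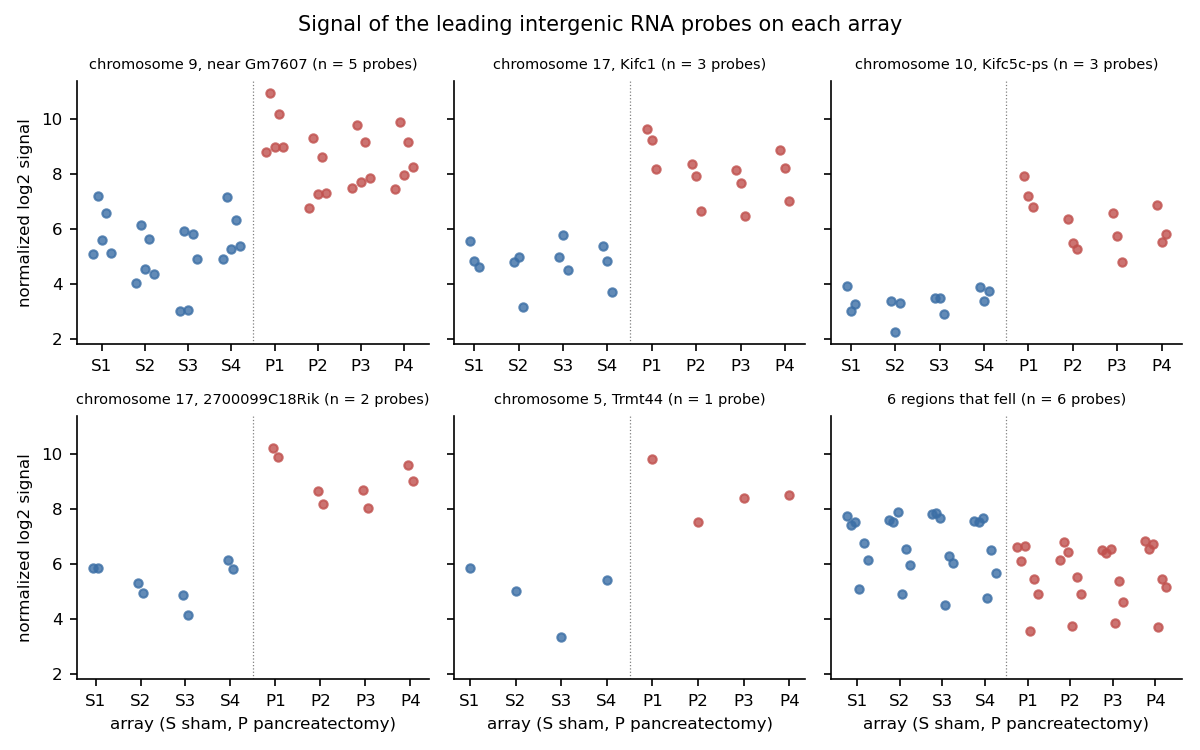
Normalized log2 signal (y axis) of single probes on each array (x axis; S sham in blue, P pancreatectomy in red), for the 14 probes that rose by more than 2, grouped by locus, and for the 6 probes that fell. In the first 5 panels each probe reads higher on every pancreatectomy array than on any sham array, and pancreatectomy replicate 1 is the highest array for all 14 probes. In the last panel 6 probes of different brightness are drawn together, so the groups overlap in the panel although they do not for any single probe.

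Across the 14 largest rises pancreatectomy replicate 1 gave the highest value of its group. That array also had the highest mean for 9 cell-cycle genes of a fixed list (Mki67, Top2a, Cdk1, Bub1, Birc5, Ccnb1, Ccna2, Plk1 and Rrm2), of which 9 of 9 rose, by 2.51 to 4.43. The list averaged 5.46 to 6.23 on sham arrays and 10.61, 8.86, 9.31 and 9.70 on pancreatectomy replicates 1 to 4. The list was chosen with its rise in these data known. Pancreatectomy replicate 1 further carried the liver, fibroblast and macrophage transcripts given above. Without it the 22 probes that rose had a median change of 2.77, against 3.11 with it.

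**Figure D4:**
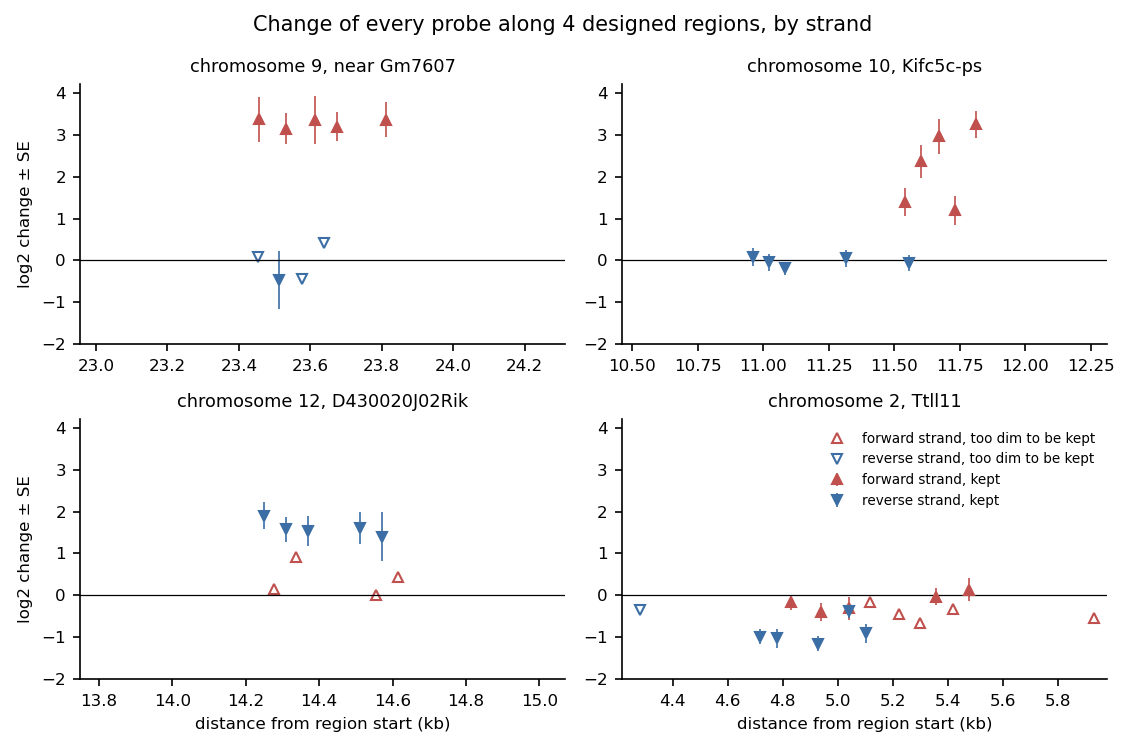
Change (y axis, log2, with SE bars for kept probes) of each probe against its distance from the start of the designed region (x axis, kb) in 4 regions, with forward-strand probes as upward and reverse-strand probes as downward triangles. Open triangles are differences of group means of probes too dim to be kept, and 1 reverse probe on chromosome 9 lies outside the drawn window. The probes on chromosomes 9, 10 and 12 that rose lie on one strand of each region. Kept probes of the other strand lie near or below 0 on chromosomes 9 and 10, and no probe of the other strand was kept on chromosome 12.

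The other 8 rises were smaller, from 0.89 to 1.90, and are named although they fall outside the 12 largest, so they were chosen after their values were seen. With slide row as a block only A_30_P01032349 of the 8 passed, and with normexp correction none did (limma, lowest adjusted p = 0.0589). On the reverse strand of chr12:117623500-117643575 all 5 probes were kept and changed by 1.40 to 1.90. A_30_P01027809 there read 5.55, 5.61, 5.16 and 5.60 on sham and 7.96, 7.13, 6.53 and 7.92 on pancreatectomy arrays, and rose by 1.90 ± 0.32 (limma, adjusted p = 0.0405). Groups were separated for 4 of the 5 probes, but the other 4 did not pass, and A_30_P01031715 came closest with 1.58 ± 0.30 (adjusted p = 0.0678). None of the 4 forward-strand probes was kept. The nearest named gene, D430020J02Rik, on the same strand, changed by 0.01 ± 0.61.

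A_30_P01026687 (chr8:59994677-59994736) lay 1689 bases from the probe of Hmgb2, a chromatin protein abundant in dividing cells, on the same strand. It was dim, at 3.13, 3.26, 3.04 and 2.99 on sham and 4.82, 3.96, 4.38 and 4.24 on pancreatectomy arrays, and rose by 1.24 ± 0.20 (limma, adjusted p = 0.0315). Hmgb2 itself rose by 1.76 ± 0.19 (adjusted p = 0.00809). A_30_P01028956 on chromosome 1, bright enough to be seen on all 8 arrays, read 9.01, 9.18, 9.26 and 9.52 on sham and 10.95, 10.41, 10.15 and 11.10 on pancreatectomy arrays. It rose by 1.41 ± 0.24, while Traf5, a signalling adaptor of tumour necrosis factor receptors 4170 bases away on the opposite strand, changed by -0.04 ± 0.21.

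A_30_P01020168 on chromosome 14 had tight sham values of 6.92, 7.05, 7.05 and 6.92 and read 7.86, 8.62, 8.12 and 8.38 after pancreatectomy, a rise of 1.26 ± 0.18 (limma, adjusted p = 0.0219). It lies 4730 bases from the probe of the immediate early transcription factor gene Egr3 on the same strand, which was too dim to be kept. The other kept probe of the chromosome 14 region, A_30_P01025779 on the same strand, was brighter, with means of 12.46 on sham and 12.03 on pancreatectomy arrays. It went the other way, by -0.435 ± 0.21, and did not pass (limma, adjusted p = 0.52). A_30_P01032349 on chromosome 13 rose by 1.55 ± 0.21 and lies 7 bases from the probe of Eprn on the opposite strand, also too dim to be kept. Of the 5 kept forward probes in that region it alone passed, and the others changed by -0.16 to 0.33. A_30_P01024638, on the strand of Klf10 and 17328 bases from its probe, rose by 1.39 ± 0.24, while Klf10, a zinc finger transcription factor gene induced by TGF-beta, changed by -0.17 ± 0.21. A_30_P01022255 on chromosome 16 and A_30_P01020121 on chromosome 5 rose by 1.35 ± 0.23 and 0.89 ± 0.15. The other probes on the strand of A_30_P01022255 in its region were well above background on 0 arrays. In the region of A_30_P01020121 the other kept probes changed by 0.39 ± 0.18 and -0.205 ± 0.375 and did not pass.

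All 6 probes that fell lay on the reverse strand, with changes close to -1 log2 unit. With slide row as a block A_30_P01024332 and A_30_P01027411 passed, while A_30_P01017806, A_30_P01022819, A_30_P01020699 and A_30_P01031465 did not (limma, adjusted p = 0.0513, 0.0513, 0.0731 and 0.0746). With normexp correction none of the 6 passed, at -0.80 to -0.35. A_30_P01017806 (chr2:35833537-35833596) read 7.74, 7.60, 7.83 and 7.57 on sham and 6.63, 6.16, 6.5 and 6.84 on pancreatectomy arrays. The groups were separated by more than the spread within the sham group, and the change was -1.15 ± 0.17 (limma, adjusted p = 0.0259). Of its region, chr2:35828611-35838083, 5 reverse probes were kept, with changes of -1.15 to -0.37, and 4 had separated groups. The 5 kept forward probes changed by -0.40 to 0.13. Ttll11, which encodes a polyglutamylase of tubulin, has a probe 920 bases away on the same strand that changed by -0.30 ± 0.17 and did not pass.

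A_30_P01024332 (chr7:88138095-88138154) read 7.51, 7.89, 7.68 and 7.66 on sham and 6.64, 6.42, 6.55 and 6.72 on pancreatectomy arrays. It fell by 1.11 ± 0.15 (limma, adjusted p = 0.0152). The probe that adjoins it, A_30_P01030622, changed by -1.003 ± 0.19 (adjusted p = 0.0708), while a probe at the other end of the region changed by 0.18. A_30_P01020699 (chr6:133054930-133054989) read 7.41, 7.51, 7.84 and 7.51 on sham and 6.12, 6.78, 6.40 and 6.54 on pancreatectomy arrays, a change of -1.11 ± 0.18 (adjusted p = 0.0371). The probe that adjoins it changed by -1.03, and the other 4 kept probes of its region by -0.24 to 0.35.

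A_30_P01022819 (chr3:84616901-84616960) was dim, at 5.10, 4.89, 4.51 and 4.75 on sham and 3.57, 3.73, 3.85 and 3.71 on pancreatectomy arrays, with 3 arrays of each group well above background. Its change was -1.10 ± 0.16 (limma, adjusted p = 0.0243). A_30_P01027411 (chr17:86565347-86565406) read 6.77, 6.56, 6.30 and 6.49 on sham and 5.46, 5.54, 5.39 and 5.45 on pancreatectomy arrays, a change of -1.07 ± 0.14 (adjusted p = 0.0165). Prkce, which encodes protein kinase C epsilon, lies on the opposite strand with a probe 2629 bases away and changed by 0.01 ± 0.24. Among the other kept probes of the region of A_30_P01027411, the brightest, A_30_P01027850, changed by 0.03 ± 0.27. A_30_P01026192 changed by -0.47 ± 0.21, and A_30_P01026204 is given below. A_30_P01031465 (chr12:73860986-73861045) read 6.14, 5.96, 6.05 and 5.66 on sham and 4.92, 4.91, 4.63 and 5.17 on pancreatectomy arrays, a change of -1.04 ± 0.17 (adjusted p = 0.0377). The probe of 5033425G24Rik, 86 bases away on the same strand, changed by -0.66 ± 0.16 and did not pass. Of the 5 probes with the lowest p among those that did not pass 4 were lower, among them A_30_P01027642 at -0.80 ± 0.14 (adjusted p = 0.0512) and A_30_P01026204, from the same region as A_30_P01027411, at -0.91 ± 0.16 (adjusted p = 0.0518).

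Probes for both strands were present in 1067 regions, and in these 829 had kept probes on both strands, 199 on one strand only and 39 on none. In the 2285 strand-specific regions with several kept probes, the range of change within a region had a median of 0.39. The median SD within a region was 0.22, against an SD of 0.39 over all members. Many of these SDs rest on few probes, and SDs of few values tend to be small. Their difference from 0.39 is therefore no measure of agreement within regions. Of 1323 strand-specific regions with at least 3 kept probes, 9 had separated groups in one direction for each kept probe. These were the chromosome 9 and Kifc1 regions, which were higher, and 7 regions that were lower. In those 7 regions limma called 0 probes. The largest of these differences was on the forward strand of chr13:98062189-98066613, where 3 probes changed by -1.31 ± 0.31, -1.29 ± 0.28 and -1.25 ± 0.31 (adjusted p from 0.125 to 0.179).

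Changes of kept probes ran with those of a gene probe within 1 kb on the same strand, and much less with those of a gene probe on the opposite strand. Where the nearest gene probe was within 1 kb on the same strand (n = 622), the changes of both had a Pearson r of 0.63 and a Spearman rho of 0.53 across probes. Without the called probes (n = 614) they were 0.55 and 0.51. Where it was within 1 kb on the opposite strand (n = 327), r was 0.09 and rho 0.12. Same-strand probes were brighter, with median signals of 6.56 against 4.87 within 1 kb and 5.74 against 5.05 at 1 to 5 kb. These medians include the called probes. The part of brightness in the contrast between strands was not tested. At 1 to 5 kb, without the called probes, r was 0.27 on the same strand (n = 680) and 0.10 on the opposite strand (n = 583). At 5 to 20 kb it was 0.09 on the same (n = 1192) and 0.09 on the opposite strand (n = 966), where the 4 called probes on the same strand raised it to 0.17. At greater distances it lay between -0.03 and 0.06 on either strand. These correlations are descriptions, as both values come from the same arrays, several probes share 1 gene and some probes overlap. Of the 28 called probes, 15 had a gene probe within 5 kb, 8 had one within 1 kb on the same strand, and 6 had as nearest gene one that passed as well, namely Kifc1, 2700099C18Rik or Hmgb2. Of these genes, 2700099C18Rik met the filter through the pancreatectomy arrays alone.

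**Figure D5:**
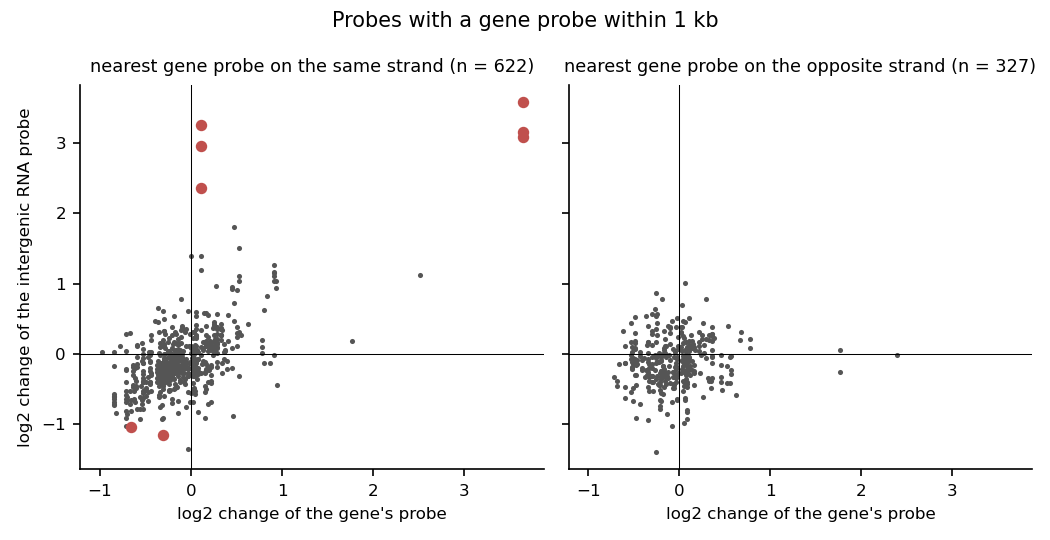
Change of each kept intergenic RNA probe (y axis, log2) against the change of the nearest gene probe (x axis, log2) where that lies within 1 kb, on the same strand (left, n = 622, r = 0.63) or the opposite strand (right, n = 327, r = 0.09). Each point is a probe and red points passed the test. The 3 red points at the upper right are the Kifc1 region, and the 3 high ones close to 0 on the x axis, at 0.11, are the probes at Kifc5c-ps.

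The 15 strand-specific regions in which all 10 probes were kept include several next to well studied genes, and the first 5 by mean signal held no called probe. On the forward strand of chr17:26911397-26917047, 3656 bases or more from the probe of Crebrf, a regulator of the transcription factor Creb3, all 10 changes were negative, from -0.90 to -0.54 with a median of -0.69, and groups were separated for 6 of the 10. Crebrf changed by -0.53 ± 0.24 (limma, adjusted p = 0.488). The region chr19:5771425-5848475 holds both Neat1 and Malat1, and its 10 forward probes, on the strand opposite to both genes, changed by -0.43 to 0.52 with a median of -0.04. Neat1 itself changed by 0.21 ± 0.26 and Malat1 by -0.17 ± 0.45. The forward probes at Zfp652 on chromosome 11 and Zbtb20 on chromosome 16 had medians of -0.14 and -0.34, and the reverse probes near Anxa5 on chromosome 3 had a median of 0.03.

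The 5 probes with the brightest spots showed no change that passed. A_30_P01031264 and A_30_P01020570, on opposite strands of chr12:73838608-73862621, averaged 17.58 and 16.91 and changed by 0.00 ± 0.19 and 0.20 ± 0.27. A_30_P01032580, 130 bases from the probe of Dancr, a host of small RNAs, averaged 17.11 and changed by -0.13 ± 0.20, while the Dancr probe changed by -0.52 ± 0.19 (limma, adjusted p = 0.407). A_30_P01020015, near the 18S ribosomal RNA gene Rn18s, averaged 17.04 and changed by 0.08 ± 0.21. A_30_P01023523 on chromosome 6 averaged 17.28 and changed by 0.06 ± 0.22. On these arrays 0 spots were marked as saturated.

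The probes with the widest spread within groups stood apart on single arrays. A_30_P01020727 read 11.06, 10.15, 3.01 and 10.27 on sham and 10.03, 10.13, 10.03 and 10.57 on pancreatectomy arrays, and only sham replicate 3 was low. A_30_P01023905, which overlaps it, A_30_P01028019 near Anxa5 and A_30_P01022829 at 5730419F03Rik were low on that array in the same way, at 2.84, 3.04 and 2.94. A_30_P01020518 (chr9:78116774-78116833) read 4.60, 4.53, 4.53 and 7.52 on sham and 7.04, 3.25, 10.42 and 5.62 on pancreatectomy arrays, with its highest values on sham replicate 4 and pancreatectomy replicates 1 and 3. Its nearest named probe, of the glutathione transferase gene Gsta1 on the same strand, read 11.62 on pancreatectomy replicate 3 and at most 5.35 on the other arrays.

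Long noncoding RNA genes with a symbol were read from their own probes. Of 49 such genes listed, 28 were measured, 0 passed and the median change was 0.03. Unadjusted p was under 0.05 for 3 of the 28 (limma), as it was for 10.5% of all features. The imprinted Meg3 changed by 0.06 ± 0.19, the small nucleolar RNA host Gas5 by 0.20 ± 0.16, and Snhg5, another host, by 0.61 ± 0.23 (adjusted p = 0.412). H19, an imprinted fetal transcript, read 5.35, 4.75, 4.01 and 5.08 on sham and 11.38, 5.66, 7.26 and 4.98 on pancreatectomy arrays. It changed by 2.52 ± 1.21 (adjusted p = 0.515) and was highest on the array with the highest fibroblast markers, whose part in it was not tested. Among the 752 named features with the RefSeq biotype of long noncoding RNA, 2 rose and 2 fell, beside 168 (0.544%) and 26 (0.0842%) of all 30864 features. Lockd, a transcript downstream of the cell-cycle inhibitor gene Cdkn1b, read 8.36, 7.62, 8.21 and 8.02 on sham and 11.51, 10.17, 9.48 and 10.58 on pancreatectomy arrays, a rise of 2.38 ± 0.39 (adjusted p = 0.0382), while Cdkn1b changed by -0.41 ± 0.19 and did not pass. The others were 4732419C18Rik at 1.01 ± 0.15, 1810034E14Rik at -1.21 ± 0.19 and Gm4814 at -1.003 ± 0.16.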

How the data were processed

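Scanner output of 8 one-colour arrays holds an intensity per spot on a linear scale, extracted with Feature Extraction 10.7.3.1, background-subtracted and detrended, per the file headers. The submitters' processing notes name version 9.1. The authors' deposited table of log2 values, made with GeneSpring GX 12.5 per the file headers, holds group averages only and served here for symbols. Its pancreatectomy minus sham differences had an r of 0.96 across the 8554 probes with the changes computed here. Of 33325 probes with a symbol, 30994 were matched to GRCm38 names. Control spots and 113 to 228 outlier spots per array were dropped. Each array's log2 processed signal was shifted by its 75th percentile, and the mean percentile was added back. Features needed well-above-background marks on at least 4 arrays and at least 3 values per group. Among the 8554 probes 42 lacked 1 array value, and none of these was called. limma 3.58.1 in R 4.3.3 (lmFit, eBayes) compared the groups, with Benjamini-Hochberg adjustment over 30864 features and a threshold of 0.05, after a test on simulated data. The number of arrays limits precision. Folds are of normalized signals, ± denotes SE unless SD is named, and p-values are two-sided. The array design gives positions on mm9, and exon and UTR annotation of that build was not used here. Named were all called probes up to the 12 largest rises and 12 largest falls, 5 with the highest signal, 5 nearest to the threshold, 5 with the largest SD within groups, and 5 regions with most kept probes. The members, lists and tests were chosen with earlier results of these data known. Alternatives covered scaling, background correction, filters, slide row, variance model and left-out arrays. Probe sequences were not analysed here.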

Additional observations from a re-analysis of the deposited data

Results flagged for a closer look

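Values of named probes, and the share of probes detected, were checked for an array far from the other 3 of its group. Of 88 groups of 4 values tested, 11 were marked. Of these, 5 marks in 10 groups belong to probes named for their large SD within groups, which fixes them in part in advance. Among the other 78 groups 6 were marked, 3 of them for sham replicate 3, and chance marks about 1 in 20. There 27.7% of intergenic probes were well above background, against 55.0% to 58.3% on the other sham arrays. A_30_P01020727 read 3.01 there against 10.15 to 11.06, A_30_P01028019 read 3.04 against 9.43 to 9.45, A_30_P01023905 read 2.84 against 8.80 to 9.80, and A_30_P01022829 read 2.94 against 9.1 to 9.22. Smaller gaps on that array were those of A_30_P01028287 in the Kifc1 region, at 5.80 against 4.83 to 4.98, and of A_30_P01027809 on chromosome 12, at 5.16 against 5.55 to 5.61.

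On sham replicate 4, A_30_P01031264 read 17.29 against 17.65 to 17.69, and A_30_P01020518 read 7.52 against 4.53 to 4.60. On pancreatectomy arrays, A_30_P01018019 at Kifc5c-ps read 7.22 on replicate 1 against 5.51 to 5.76, and A_30_P01022420 on chromosome 2 read 7.67 on replicate 4 against 7.17 to 7.24.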

How the results depend on the processing

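In place of 22 higher and 6 lower intergenic probes, quantile normalization gave 14 and 8, median scaling 16 and 10, no scaling between arrays 1 and 0, and normexp on the median signals 6 and 0, an alternative chosen after seeing the files. Over all 30864 features, in place of 168 and 26, these settings gave 122 and 36, 130 and 48, 18 and 0, and 54 and 6. Without a filter on dim probes the counts were 7 and 0, with probes above background on all 8 arrays 9 and 8, with slide row as a block 11 and 2, and with array weights 65 and 153. Over all features these were 68 and 4 (of 46634), 93 and 33 (of 21663), 111 and 11, and 530 and 587 (both of 30864). Filtering on 2 arrays of each group, testing every probe on its own and an intensity trend gave 21 and 6, 22 and 6, and 20 and 7. All features gave 155 and 26 (of 30133), 198 and 30 (of 37491), and 187 and 35 (of 30864) there. Each slide row on its own gave 0 and 0, as did leaving out the 3 arrays with liver transcripts or the 4 arrays with liver or gut and B-cell transcripts. Leaving out 1 array gave 6 to 15 higher and 0 to 10 lower probes. Fewer samples or more features entered several of these fits, and otherwise the cause was not tested. The median change over the intergenic probes stayed between -0.16 and 0.02, except at 0.15 without the 4 arrays, where 3 arrays stand against 1 and the lone array is assumed to vary like the others. For median scaling the median over all features was -0.16 as well, so changes under it are relative to that shift. Of 628 repeats for the 28 called probes, 344 lost the call and 0 changed sign, but sign is fixed in advance for groups that do not overlap wherever arrays are only left out. Of 340 repeats for 15 named probes that did not pass, 20 passed. The planned normexp on mean spot signals was not run, as those signals are not in the files used here. No paired analysis was possible because the labels give no replicate numbers shared between the groups, and slide row was used as a block instead. Dim probes set the limit of depth, as 15 of the 28 called probes were not above background on sham replicate 3.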

Other observations

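The 7 regions that were lower for each of at least 3 kept probes, with no probe called, lay on chromosomes 13, 6, 2, 3, 5, 7 and 19, with median changes of -1.29, -0.90, -0.80, -0.74, -0.64, -0.57 and -0.46. Gene probes were 10419 bases or more from 6 of them, the nearest being C430039J16Rik near the chromosome 13 region, while the chromosome 5 region overlaps the probe of Acad12, a gene of the acyl-CoA dehydrogenase family. Of the 1323 regions compared, 436 had the same sign of change for every kept probe. A shared sign also arises by chance, most often in regions with few probes, and the share due to chance was not worked out. On chr3:84609788-84618062, the reverse-strand region that overlaps the fall of A_30_P01022819, 10 kept probes changed by -1.06 to -0.13 with a median of -0.76.

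The kept share of intergenic probes differed between chromosomes, from 43.9% on chromosome 9 to 60.2% on chromosome 5, and called probes lay on 15 chromosomes. Members at least 4 log2 units above the median of the other arrays numbered 1, 0, 5 and 4 for sham replicates 1 to 4, and 3, 0, 13 and 0 for the pancreatectomy replicates.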
